A study of Mus musculus with 20 samples.

Results

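Cytochrome P450 enzymes of families 1 to 4 oxidise drugs, dietary compounds, bile acids, steroids, retinoids and fatty acids. The array carried probes for 73 genes of these families among 25034 named genes. They were chosen by gene name alone: a P450 symbol of family 1, 2, 3 or 4 with a subfamily letter and a number. Genes were tested where the scanner marked their probe well above background on 6 or more of 12 arrays, or 4 or more of 8, which kept 59 genes for BRAFV600E against Cre control and 58 for MEKi against Vehicle, with 57 tested in both and 60 in either. All values are log2 intensities of a probe minus the 75th percentile of its array, and a difference of 1 is therefore a doubling.

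P450 enzymes sit in the membrane of the endoplasmic reticulum and take their electrons from P450 oxidoreductase, the product of Por. The liver is their main site, and the enterocytes of the small intestine are the other large store, where they act on swallowed compounds before these reach the portal blood. Transcription of families 1 to 4 is set largely by receptors that bind small molecules: the aryl hydrocarbon receptor (AhR, gene Ahr) for Cyp1, the constitutive androstane receptor (gene Nr1i3) and the pregnane X receptor (gene Nr1i2) for Cyp2b, Cyp2c and Cyp3a, and PPARA for Cyp4a.

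Transcripts were measured in intestinal tissue of 20 C57BL6/j mice, 1 array per mouse. The 6 Cre control mice carried VillinCreER/0, a tamoxifen-inducible Cre that the Villin promoter drives in the gut epithelium, and the 6 BRAFV600E mice carried the same Cre and in addition BrafV600E-LSL/+, an allele of the mutant kinase that Cre switches on. Both groups were 8 to 12 weeks old, were described as holding equal numbers of males and females, received 3 daily doses of 2 mg tamoxifen and were sampled 3 days after the last dose. The 4 MEKi mice were given PD184352, an inhibitor of MEK, the kinase directly downstream of BRAF, and the 4 Vehicle mice its carrier, in 3 daily injections after 2 tamoxifen injections of 1 mg. The genotype of these 8 mice, VillinCreER/0 with BrafV600E-LSL/+ throughout, comes from the study's text and not from the sample labels, so neither group of this pair lacks the mutant allele. A treatment text that names atorvastatin and female mice stands on all 20 samples, fits none of the groups and was not used. The pieces of gut were whole tissue, in which fewer cells of a type and less RNA per cell cannot be told apart.

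The first comparison asks which P450 transcripts differ within days of switching on the kinase, and the second which of them differ when MEK is blocked in mice that carry it. Between 60.7% and 76.7% of spots on an array were well above background and 0 were saturated. All Cre control arrays were on slide 1, which they shared with the first 2 BRAFV600E replicates, while replicates 3 to 6 of that group were alone on slide 2. The second experiment filled slide 3, MEKi in array row 1 and Vehicle in row 2, so that row and treatment cannot be told apart. Y-linked signal was present in 3 Cre control mice (1, 2 and 3), in 4 BRAFV600E mice (1, 2, 3 and 6), in all 4 given MEKi and in 2 given Vehicle (1 and 3). The 10 enterocyte markers had a mean level of 6.92 to 7.37 in Cre control, of 6.63 to 7.25 on 5 BRAFV600E arrays and of 5.30 on BRAFV600E replicate 2. The 7 exocrine pancreas markers had a mean level of 7.21 on Vehicle replicate 2 and of −5.07 to −3.90 on the 19 other arrays, and MEKi differences that it turned or moved by over 1.5 times are given without it too. Markers of hepatocytes, the other large P450 source, had mean levels between −4.46 and −3.55 on all arrays, and Alb was well above background on 2 of 6 BRAFV600E and 5 of 6 Cre control arrays.

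With BRAFV600E, 16 of the 59 tested P450 genes fell and 1 rose. Those that fell were Cyp2b9, Cyp2b10, Cyp2c38, Cyp2c40, Cyp2c55, Cyp2c67, Cyp2c68, Cyp2c69, Cyp2d10, Cyp2d11, Cyp3a11, Cyp3a16, Cyp3a44, Cyp3a59, Cyp4f15 and Cyp4v3, while Cyp2s1 rose. Without scaling between arrays 6 of these 17 calls remained, and Cyp2c40, Cyp2d10 and Cyp2d11 were not lower. Cyp2c38, Cyp2c67, Cyp2c68, Cyp2c69, Cyp3a11, Cyp3a44, Cyp3a59 and Cyp4v3 then had negative differences, from −0.84 to −0.01, but were not called. The largest differences were in Cyp2c55 (20.3-fold lower), Cyp2b10 (11.5-fold lower) and Cyp2b9 (9.47-fold lower). The call was a limma adjusted p under 0.05 over all tested genes, and 28.8% of the tested P450 genes passed it against 12.5% of the 19036 genes tested. By direction, 27.1% of the P450 genes were called lower against 6.27% of all genes, and 1.69% were called higher against 6.19%. The groups did not overlap for 9 P450 genes (15.3%) against 7.36% of all genes, 8 of them called. Of the 17 called, 15 were well above background on every array, while Cyp4f15 and Cyp3a44 passed the detection filter mainly through Cre control, where they were higher. With only the 48 genes detected on every array tested, 18 were called, 17 of them lower, against 16.2% of all genes so detected. The median difference was −0.21 over the tested P450 genes and −0.02 over all genes, and all 14 P450 genes that differed by more than 1 in size were lower. Without scaling between arrays all genes shifted by 0.79 at the median. In that setting 15 P450 genes were called and 33.3% of them were lower, against 94.1% of the 17 called with scaling. Of all genes 49.1% were then called in either direction, a larger share than 15 of 59, so by total count the P450 genes showed no excess there. Of the P450 genes 5 were called lower in that setting. The share of all genes called lower there was not counted, so the total does not decide about an excess by direction.

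**Figure D1:**
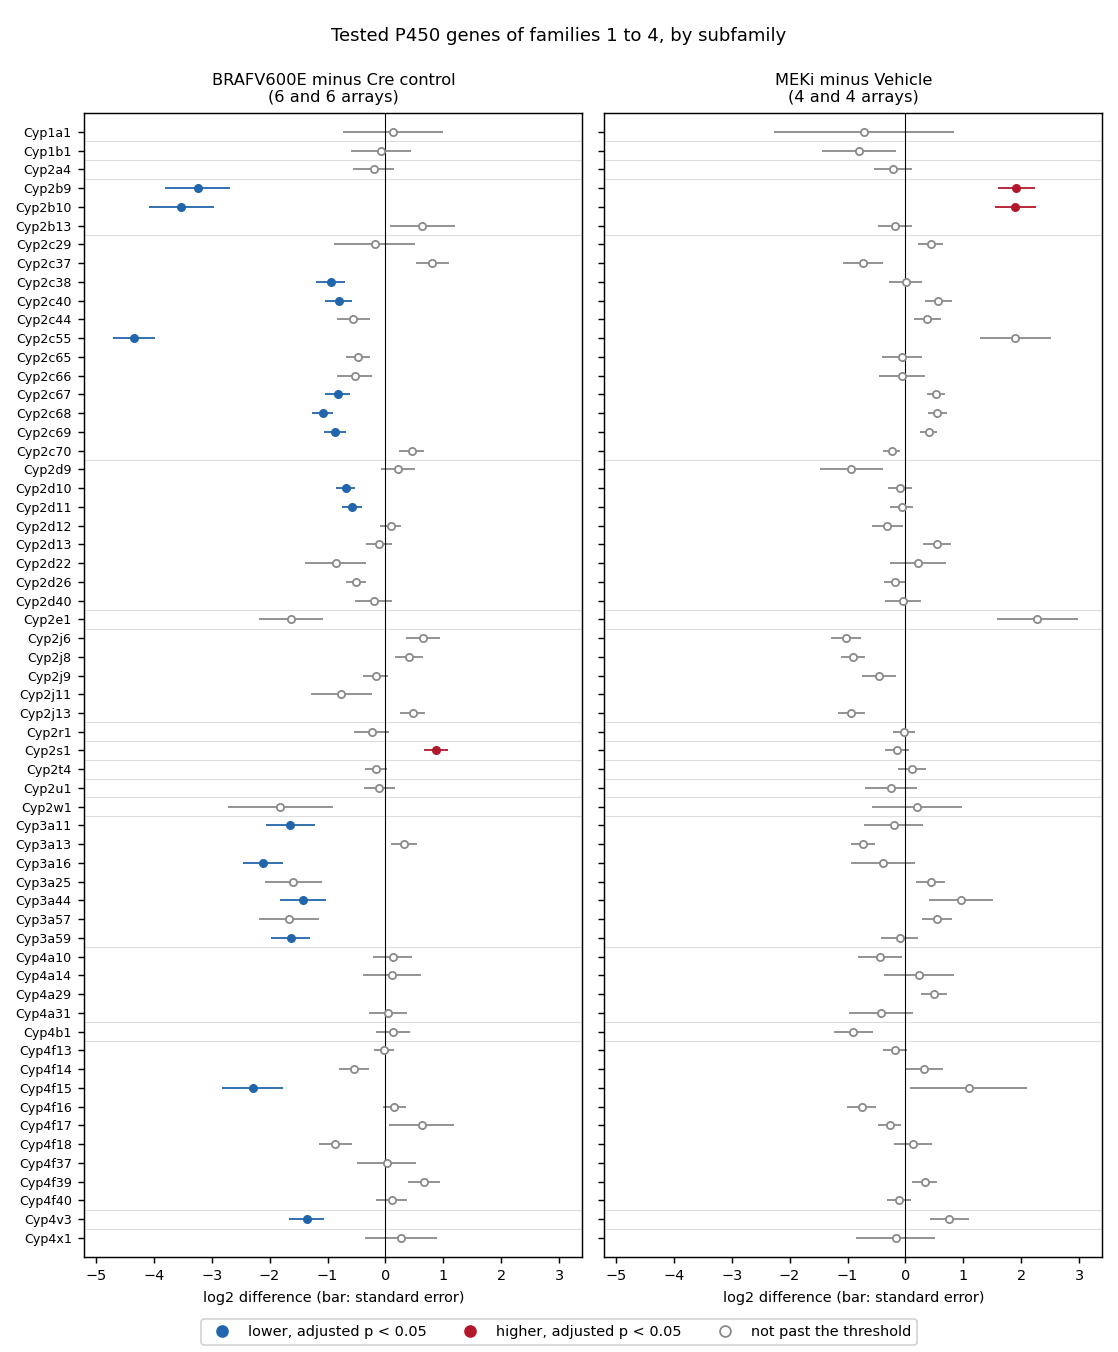
Log2 difference of each tested P450 gene of families 1 to 4, by subfamily, for BRAFV600E minus Cre control (left, 6 and 6 arrays) and MEKi minus Vehicle (right, 4 and 4 arrays). Points are the fitted differences, bars their standard errors, and filled points passed a limma adjusted p under 0.05: 16 lower and 1 higher on the left, 2 higher on the right. Without scaling between arrays 6 of the 17 calls on the left remained, and Cyp2c40, Cyp2d10 and Cyp2d11 were at 0.00, 0.12 and 0.22.

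Cyp2b enzymes hydroxylate drugs and steroids, and Cyp2b10 is the usual readout of the constitutive androstane receptor in mice. On the array 5 Cyp2b genes were present and 3 tested, of which Cyp2b9 and Cyp2b10 fell. The 250 bases of GRCm38.p6 that precede their annotated starts, taken from RefSeq, are shown because these genes changed in both comparisons; capitals mark the searched strings found there, GCGTG (the core of the AhR element, as written or as its reverse complement CACGC) in Cyp2b10 and AGGTCA (the core of nuclear receptor sites) in Cyp2b9.
Cyp2b10, chr7:25897408-25897657, plus strand: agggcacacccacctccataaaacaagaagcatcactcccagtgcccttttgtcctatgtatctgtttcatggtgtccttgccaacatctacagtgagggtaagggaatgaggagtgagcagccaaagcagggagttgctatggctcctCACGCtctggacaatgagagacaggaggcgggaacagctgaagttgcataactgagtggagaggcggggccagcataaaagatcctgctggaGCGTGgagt
Cyp2b9, chr7:26173159-26173408, plus strand: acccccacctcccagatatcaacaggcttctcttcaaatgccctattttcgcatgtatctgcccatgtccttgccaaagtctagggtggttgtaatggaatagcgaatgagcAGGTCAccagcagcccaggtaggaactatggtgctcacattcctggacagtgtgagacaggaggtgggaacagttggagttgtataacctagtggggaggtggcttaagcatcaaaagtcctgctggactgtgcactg
Compared without gaps, 126 of 249 overlapping bases of the pair matched (50.6%).

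Cyp2b10 (probe at chromosome 7, 26711522 to 26711581, mm9) had a level of 5.63 at lowest, 6.08 at the median and 6.43 at highest on the Cre control arrays, and of −0.07, 2.84 and 4.01 on the BRAFV600E arrays. Every BRAFV600E array lay below every Cre control array, and BRAFV600E replicate 2 was the lowest. Its difference was −3.53 (SE 0.565, limma adjusted p 0.00256). A second Cyp2b10 probe gave −2.96. Cyp2b9, a steroid hydroxylase that is higher in female mouse liver, lay at 26995607 to 26995666 on the same chromosome and had levels of 4.59, 4.96 and 5.53 in Cre control and of −0.67, 2.09 and 3.25 in BRAFV600E. Again the groups did not overlap and BRAFV600E replicate 2 was the lowest. Its difference was −3.24 (SE 0.562, adjusted p 0.00397). Cyp2b13, whose probe lies between those of the other two, was not called, at 0.63 (SE 0.562), and its levels were low, from −6.73 to −3.53 over the 12 arrays. The BRAFV600E arrays of slide 1 had lower means than those of slide 2, 0.96 against 3.31 for Cyp2b10 and 0.29 against 2.61 for Cyp2b9. Slide as a block compares the groups within slide 1 and gave the same estimates as slide 1 alone. Its estimates therefore rest on BRAFV600E replicates 1 and 2 against Cre control, while the SE also draws on slide 2. With it the differences were −5.09 (SE 0.522, adjusted p 0.000283) and −4.79 (SE 0.527, adjusted p 0.000428). On the 4 BRAFV600E and 3 Cre control arrays with Y-linked signal the differences were −3.93 and −3.73, with adjusted p values of 0.0584 and 0.0657.

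**Figure D2:**
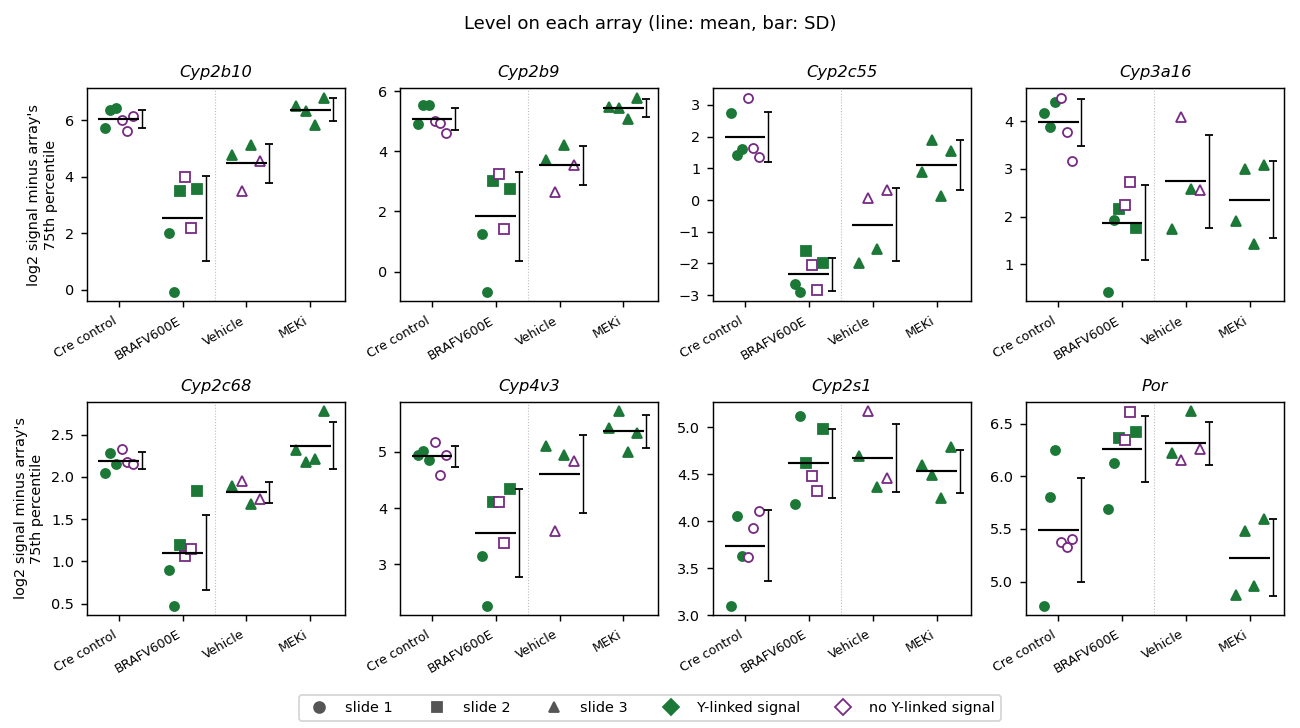
Level of 7 P450 genes and of Por on every array (log2 signal minus the array's 75th percentile), by group; the line is the mean, the bar the SD, the shape the slide and the filling the Y-linked signal. Cyp2b10 lies at 5.63 to 6.43 in Cre control and at −0.07 to 4.01 in BRAFV600E, and at 5.85 to 6.81 in MEKi against 3.49 to 5.11 in Vehicle.

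Cyp2c enzymes oxidise arachidonic and linoleic acid as well as drugs. Of 15 Cyp2c genes on the array 12 were tested, 6 fell and 0 rose, with a median difference of −0.68. Cyp2c55, an arachidonate and retinoid oxidase known from the intestine, showed the largest difference of all tested P450 genes. The 250 bases before its start are shown for that reason, with TATAAA, the TATA box string, in capitals at 29 bases before the start.
Cyp2c55, chr19:39006769-39007018, plus strand: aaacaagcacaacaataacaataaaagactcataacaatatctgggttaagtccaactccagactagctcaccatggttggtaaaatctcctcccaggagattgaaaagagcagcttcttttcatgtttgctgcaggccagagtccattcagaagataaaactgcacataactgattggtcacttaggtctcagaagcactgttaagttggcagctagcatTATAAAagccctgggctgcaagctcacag
Its probe (chromosome 19, 39116674 to 39116733, mm9) had levels of 1.35, 1.61 and 3.24 in Cre control and of −2.89, −2.35 and −1.62 in BRAFV600E. No BRAFV600E array reached the lowest Cre control array. The difference was −4.34 (SE 0.355, adjusted p 2.21e-05), and a second probe gave −3.23. It stayed past the threshold in each of the 24 alternative settings tried, between −4.77 and −3.53. With slide as a block it was −4.77 (SE 0.492, adjusted p 0.000283).

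Of the other Cyp2c genes that fell, Cyp2c67, Cyp2c68, Cyp2c40 and Cyp2c69 lie next to each other by probe position on chromosome 19, between 39683429 and 39917363 (mm9). Cyp2c68 had levels of 2.05, 2.16 and 2.33 in Cre control and of 0.48, 1.11 and 1.83 in BRAFV600E, without overlap, and its difference was −1.08 (SE 0.186, adjusted p 0.00379). The other 3 overlapped between the groups on at least 1 array. Cyp2c69 had levels of 0.97, 1.47 and 1.66 against 0.04, 0.52 and 1.14, a difference of −0.87 (SE 0.185, adjusted p 0.0113). For Cyp2c67 they were 0.47, 1.44 and 1.501 against −0.02, 0.43 and 1.0998, a difference of −0.82 (SE 0.216, adjusted p 0.0281). The lowest Cre control value of Cyp2c67 came from replicate 6, and the other 5 lay from 1.34 to 1.501. Cyp2c40, an arachidonate hydroxylase, had levels of 0.29, 0.68 and 1.81 against −0.24, −0.15 and 0.50, a difference of −0.81 (SE 0.236, adjusted p 0.0426), and without scaling between arrays its difference was 0.00, or −0.79 relative to the shift of all genes. It passed in 9 of 24 alternatives, Cyp2c38 in 13 and Cyp2c67 in 14. Without scaling Cyp2c67 was at −0.01 and Cyp2c69 at −0.06, or −0.81 and −0.86 relative to the shift of all genes, and neither was called. Cyp2c38, separated from Cyp2c67 by Cyp2c39 (not well above background on any array), had levels of −1.13, −0.16 and 0.54 against −1.50, −1.22 and −1.05. Cre control replicate 6 alone of its group lay within the BRAFV600E range, and the difference was −0.94 (SE 0.249, adjusted p 0.0284). With slide as a block the adjusted p was 0.00180 for Cyp2c68, 0.00975 for Cyp2c69, 0.0319 for Cyp2c67, 0.0801 for Cyp2c38 and 0.108 for Cyp2c40. The 6 Cyp2c genes that were tested and not called ranged from −0.56 to 0.81.

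The probes of Cyp2c67 and Cyp2c68 resemble each other, so their values may share signal. They match at 55 of 59 overlapping bases (93.2%), and a stretch of 30 bases from each is printed to show how close they are, with the bases that differ in capitals.
Cyp2c67: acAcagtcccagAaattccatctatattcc
Cyp2c68: acCcagtcccagGaattccatctatattcc
The same holds for Cyp3a25 and Cyp3a57, which match at 49 of 52 bases (94.2%).
Cyp3a25: gtgtcaagagataaacccagaactggaTcA
Cyp3a57: gtgtcaagagataaacccagaactggaCcG
Among the probes that stood for a tested P450 gene, these were the only pairs of members that matched at 80% or more of the overlapping bases. Probes were compared with other probes only, at shifts of up to 20 bases, and not with transcripts. Whether probes of other close relatives, such as Cyp2d10 with Cyp2d11 or Cyp3a11 with Cyp3a16, share signal was therefore not tested. The promoters of Cyp2c40 and Cyp2c69 were alike at 217 of 220 bases (98.6%) and those of Cyp3a16 and Cyp3a44 at 236 of 246 (95.9%), while the upstream sequences of Cyp2c55 matched those of the other Cyp2c genes that fell at 32.8% to 36.4%.

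Cyp3a enzymes carry most of the oxidation of drugs in the gut wall, and Cyp3a11 is taken as the mouse counterpart of human CYP3A4. All 7 Cyp3a genes on the array were tested, 4 fell and 0 rose, with a median difference of −1.64. Cyp3a16, known from fetal and newborn liver, had levels of 3.16, 4.02 and 4.50 in Cre control and of 0.42, 2.04 and 2.72 in BRAFV600E. Its groups did not overlap, the difference was −2.11 (SE 0.346, adjusted p 0.00301), and it passed the threshold in each of the 24 alternatives, between −2.80 and −1.30. Cyp3a59 had levels of 2.71, 3.23 and 4.14 against 0.78, 1.88 and 2.53, also without overlap, a difference of −1.64 (SE 0.331, adjusted p 0.00909). For Cyp3a11 they were 2.20, 3.22 and 4.54 against 0.10, 1.66 and 2.25. These overlapped by a small margin, and the difference was −1.65 (SE 0.421, adjusted p 0.0256). Cyp3a44, a form higher in female liver, was dim, at −4.70, −3.37 and −2.84 against −5.66, −5.33 and −3.48, and was well above background on 6 of 6 Cre control but 2 of 6 BRAFV600E arrays. Its difference was −1.42 (SE 0.392, adjusted p 0.0343), past the threshold in 11 of 23 alternatives and not with array weights (adjusted p 0.0636).

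Cyp3a57 and Cyp3a25 missed the threshold. Cyp3a57 had levels of 2.61, 3.02 and 4.05 in Cre control and of −0.84, 1.79 and 2.70 in BRAFV600E, with a difference of −1.67 (SE 0.518, adjusted p 0.0532). Cyp3a25, chosen for mention after its values were seen, had levels of 3.51, 3.77 and 4.79 against 0.15, 2.65 and 3.47 and a difference of −1.59 (SE 0.494, adjusted p 0.0530), with no overlap. With slide as a block Cyp3a57 was at −2.93 (SE 0.556, adjusted p 0.00951), and both it and Cyp3a25 were then called. The 6 genes from Cyp3a57 to Cyp3a59 lie together by probe position on chromosome 5, between 146151322 and 146920697 (mm9), and all 6 had negative differences, from −2.11 to −1.42. Cyp3a13 lies apart at 138335412 and was at 0.32 (SE 0.228), not called.

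**Figure D3:**
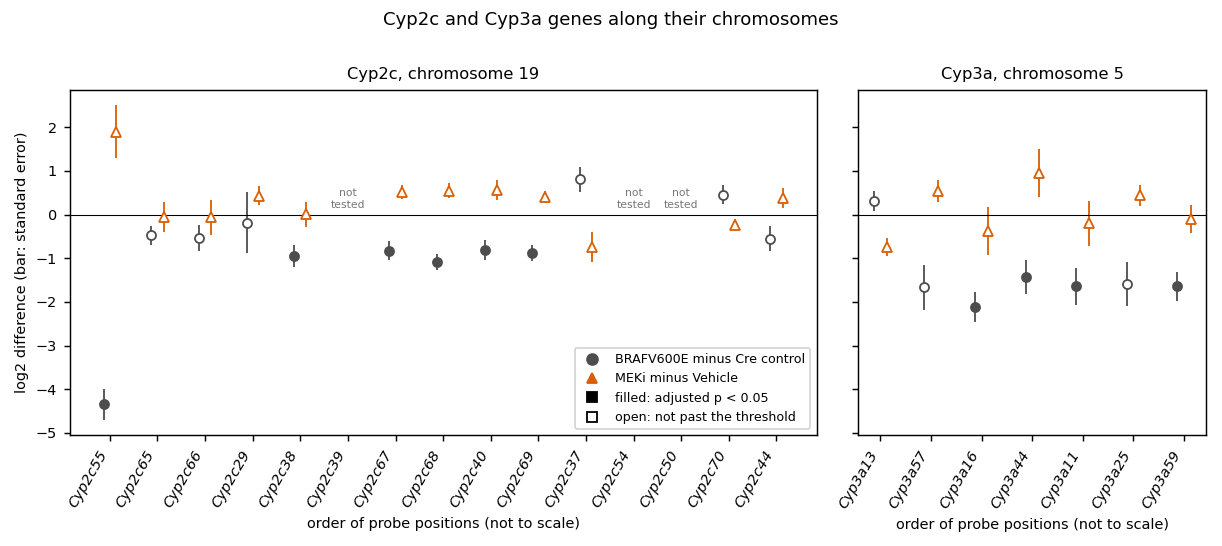
Log2 differences of the Cyp2c genes on chromosome 19 and the Cyp3a genes on chromosome 5, in the order of their probe positions (not to scale), with standard errors. Circles are BRAFV600E minus Cre control and triangles MEKi minus Vehicle; filled symbols passed the threshold. The 6 neighbouring Cyp3a genes lie between −2.11 and −1.42 with BRAFV600E and Cyp3a13 at 0.32; Cyp2c40, at −0.81 here, was at 0.00 without scaling between arrays.

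Cyp2d10 and Cyp2d11, relatives of human CYP2D6, lie next to each other on chromosome 15 (82219647 to 82233447, mm9), and were the only 2 of 8 tested Cyp2d genes that fell; without scaling between arrays their differences were 0.12 and 0.22, or −0.67 and −0.57 relative to the shift of all genes. Cyp2d10 had levels of 4.44, 5.02 and 5.35 in Cre control and of 4.06, 4.30 and 4.52 in BRAFV600E, a difference of −0.68 (SE 0.165, adjusted p 0.0202). Cyp2d11 had levels of 4.86, 5.42 and 5.77 against 4.49, 4.86 and 5.09, a difference of −0.58 (SE 0.172, adjusted p 0.0439), and passed in 9 of 24 alternatives. Both overlapped between the groups. The other 6 Cyp2d genes lay between −0.86 and 0.22, not called.

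Family 4 enzymes hydroxylate the ends of fatty acids and eicosanoids. Of its 15 tested genes 2 fell, and the median difference was 0.10. Cyp4v3, the counterpart of the human fatty acid hydroxylase CYP4V2, had levels of 4.60, 4.94 and 5.17 in Cre control and of 2.27, 3.74 and 4.35 in BRAFV600E. The groups did not overlap, BRAFV600E replicate 2 was again the lowest, and the difference was −1.36 (SE 0.307, adjusted p 0.0151), or −2.21 (SE 0.280, adjusted p 0.00105) with slide as a block. Cyp4f15 was well above background on 6 of 6 Cre control arrays and 1 of 6 BRAFV600E arrays, with levels of −5.04, −3.89 and −2.86 against −7.66, −6.40 and −4.44. Its difference of −2.30 (SE 0.519, adjusted p 0.0153) therefore rests on signals mostly below the detection mark in BRAFV600E, and with slide as a block it was −1.39 (SE 0.669, adjusted p 0.215). The 3 tested Cyp4a genes, the usual targets of PPARA, were between 0.05 and 0.12 and none was called, while of 10 PPARA targets outside the P450 family 4 rose (Acot1, Cpt1a, Plin2 and Slc25a20). The other 8 Cyp4f genes ranged from −0.87 to 0.66, not called.

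Cyp2s1, which oxidises retinoids and is found mainly outside the liver, was the only P450 gene of these families that rose with BRAFV600E. Its levels were 3.10, 3.77 and 4.11 in Cre control and 4.18, 4.55 and 5.11 in BRAFV600E. No array of either group lay within the range of the other, and the difference was 0.87 (SE 0.211, adjusted p 0.0199), or 1.83-fold. With slide as a block it was 0.91 (SE 0.308, adjusted p 0.0919). A second Cyp2s1 probe was not well above background on any array.

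The largest differences that missed the threshold beside Cyp3a57 were those of Cyp2w1 and Cyp2e1. Cyp2w1, whose human counterpart is known from fetal gut and colon tumours, varied widely, at −2.34, 0.59 and 2.13 in Cre control and −4.57, −1.52 and −0.01 in BRAFV600E. Its difference was −1.82 (SE 0.903, adjusted p 0.197), and a second, dimmer probe gave 0.30. Cyp2e1, the ethanol-oxidising form, had levels of −3.11, −2.19 and 0.32 against −4.25, −3.70 and −1.96, a difference of −1.63 (SE 0.559, adjusted p 0.0726), and a second probe gave −2.32 but was well above background on 3 of 12 arrays. The 5 tested Cyp2j genes, which make epoxides of arachidonic acid, ranged from −0.76 to 0.65, with 0 called.

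Family 1 did not pass the test in either comparison. Cyp1a1, the most inducible AhR target, had levels of −3.65, −3.03 and 0.02 in Cre control and of −4.52, −2.74 and 0.53 in BRAFV600E. The highest value of each group came from a single array, Cre control replicate 2 and BRAFV600E replicate 2, and the difference was 0.13 (SE 0.862, adjusted p 0.941). Cyp1b1, which acts on oestrogens and is known from stromal cells, had levels of −3.35, −1.55 and 0.13 against −2.69, −1.61 and −0.61 and a difference of −0.08 (SE 0.520, adjusted p 0.939). Under MEKi, Cyp1a1 was at −5.95, −5.05, −5.91 and −4.26, and in Vehicle at −7.15, 0.62, −6.33 and −5.47. Vehicle replicate 2 alone was high, and the difference was −0.71 (SE 1.55, adjusted p 0.879), or 1.02 (SE 0.522, adjusted p 0.392) without Vehicle replicate 2. Cyp1b1 was at −2.01, −2.83, −2.17 and −2.59 under MEKi and at 0.18, −1.10, −2.85 and −2.63 in Vehicle, a difference of −0.80 (SE 0.634, adjusted p 0.604).

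Of the 73 genes, 13 were tested in neither comparison, and most were dim in every group. The genes just inside the detection limit of 6 of 12 arrays were Cyp4f37 and Cyp4f39, with levels between −6.74 and −4.22, and those just outside it, on 5 arrays, were Cyp2a12 and Cyp2b19. Cyp2a12, a hydroxylase known from liver, was well above background on 5 of 6 Cre control and 0 of 6 BRAFV600E arrays, at least 2.18-fold lower in BRAFV600E when the dim arrays are set at their detection floor. In the second experiment Cyp1a1 and Cyp4x1 lay just inside the limit of 4 of 8 arrays and Cyp1a2, Cyp2b19 and Cyp2j11 just outside it. Cyp1a2 was well above background on 3 of 4 Vehicle and 0 of 4 MEKi arrays, with Vehicle levels of −6.90, −3.36, −0.28 and −5.36. These genes were not tested, and such bounds carry no p-value.

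Under MEKi, 2 of the 58 tested P450 genes rose and 0 fell, and both were the Cyp2b genes that had fallen with BRAFV600E. That is 3.45% of the tested P450 genes against 1.98% called among 19230 genes, 1.09% of them higher and 0.884% lower, so the count stands near the background and the result rests on these 2 genes. The groups did not overlap for 10 P450 genes (17.2%) against 12.2% of all genes. The median difference was −0.06 over the P450 genes and 0.04 over all genes. Cyp2b9 had levels of 5.48, 5.43, 5.06 and 5.78 under MEKi and of 3.70, 2.64, 4.21 and 3.56 in Vehicle. All 4 MEKi arrays were above all 4 Vehicle arrays, and the difference was 1.91 (SE 0.323, adjusted p 0.0294), or 3.77-fold. Cyp2b10 had levels of 6.51, 6.32, 5.85 and 6.81 under MEKi and of 4.76, 3.49, 5.11 and 4.55 in Vehicle, again without overlap, a difference of 1.90 (SE 0.358, adjusted p 0.0414), or 3.72-fold. A second Cyp2b10 probe gave 1.91.

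Vehicle replicate 2, the array with the pancreas signal, was the lowest of the 8 for both Cyp2b genes. Its proximal small intestine markers had a mean of 5.47 against 2.78 to 2.88 on the other Vehicle arrays. Its ileal markers had a mean of −3.48 against −0.42 to 0.84, and the part of gut region in these differences was not tested. Without Vehicle replicate 2 the differences were 1.62 (SE 0.227, adjusted p 0.0223) for Cyp2b9 and 1.57 (SE 0.251, adjusted p 0.0303) for Cyp2b10. All 4 MEKi arrays but 2 Vehicle arrays had Y-linked signal. With that signal as a covariate the differences were 1.49 (SE 0.331, adjusted p 0.128) and 1.45 (SE 0.378, adjusted p 0.180), and neither gene was called. Leaving out MEKi replicate 1, 2, 3 or 4, or Vehicle replicate 1 or 4, left neither gene called, with differences of 1.75 to 2.07 and adjusted p values of 0.0549 to 0.134, and without Vehicle replicate 3 Cyp2b9 alone was called.

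Among the P450 genes not called under MEKi, the largest differences were those of Cyp2e1, Cyp2c55 and Cyp4f15. Cyp2e1 had levels of −2.19, 0.74, −2.21 and −0.81 under MEKi and of −2.17, −3.75, −3.69 and −3.96 in Vehicle. Vehicle replicate 1 overlapped the MEKi range, and the difference was 2.28 (SE 0.702, adjusted p 0.161). Cyp2c55 had levels of 0.87, 1.91, 0.11 and 1.55 against −2.003, 0.07, −1.53 and 0.31, a difference of 1.90 (SE 0.606, adjusted p 0.172), with the groups overlapping between MEKi replicate 3 and Vehicle replicate 4. Cyp4f15 had levels of −4.26, −4.63, −4.40 and −3.53 against −6.69, −1.95, −6.88 and −5.66. Vehicle replicate 2 alone was above the MEKi arrays, and the difference was 1.09 (SE 1.01, adjusted p 0.668). The probe was well above background on 4 of 4 MEKi but 2 of 4 Vehicle arrays. Without Vehicle replicate 2, and on the arrays with Y-linked signal alone, Cyp4f15 passed the threshold, but Vehicle replicates 1 and 3 were below background in both settings and no size is given.

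The Cyp2c genes that lie together were all positive but not called: Cyp2c68 at 0.55 (SE 0.162), Cyp2c67 at 0.52 (SE 0.154), Cyp2c40 at 0.57 (SE 0.228) and Cyp2c69 at 0.41 (SE 0.146), with adjusted p values of 0.144 to 0.266. Cyp2c68, Cyp2c67 and Cyp2c69 did not overlap between MEKi and Vehicle. Cyp2c38 was at 0.00 (SE 0.289). Of the 7 tested Cyp3a genes 4 were negative and 3 positive under MEKi, with a median of −0.10 and 0 called. Cyp3a16 was at −0.38 (SE 0.554), Cyp3a11 at −0.20 (SE 0.510), Cyp3a59 at −0.10 (SE 0.324), Cyp3a57 at 0.55 (SE 0.255) and Cyp3a44 at 0.96 (SE 0.553), with adjusted p values of 0.337 to 0.920. Cyp4v3 was at 0.76 (SE 0.337, adjusted p 0.316), or 0.41 (SE 0.188, adjusted p 0.325) without Vehicle replicate 2, which was at 3.59 against 4.83 to 5.10 on the other 3 Vehicle arrays. Cyp2s1 was at −0.14 (SE 0.205, adjusted p 0.808), Cyp2d10 at −0.09 (SE 0.214), Cyp2d11 at −0.06 (SE 0.200) and Cyp2w1 at 0.20 (SE 0.774). Without Vehicle replicate 2, Cyp2s1 was at 0.0249, Cyp2w1 at −0.12, Cyp2c38 at −0.10, Cyp2d10 at −0.07 and Cyp2d11 at −0.05.

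Cyp2j genes, named here after their values were seen, had negative differences under MEKi in 4 of 4 tested, each by its brightest probe, from −1.03 to −0.45, and none was called. Cyp2j8 had levels of 2.47, 3.12, 2.35 and 2.54 under MEKi and of 3.70, 3.34, 3.31 and 3.77 in Vehicle, without overlap, a difference of −0.91 (SE 0.202, adjusted p 0.0695). Cyp2j6 had levels of 1.69, 2.67, 1.95 and 1.87 against 3.17, 2.85, 2.68 and 3.57, a difference of −1.03 (SE 0.266, adjusted p 0.106) by its brighter probe and −0.71 by its dimmer one. Cyp2j13, at −0.93, and Cyp3a13, at −0.73 (SE 0.204, adjusted p 0.128), did not overlap between the groups either. Without MEKi replicate 2, Cyp2j8 and Cyp2j6 were the 2 P450 genes called.

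The comparisons use separate mice and slides and share no arrays. Of the 16 P450 genes that fell with BRAFV600E, 11 (68.8%) had a positive difference under MEKi and 2 (12.5%) were called higher. Over all genes that fell with BRAFV600E and were tested in both, 1159 in number, 90.7% had a positive difference and 81 (6.99%) were called higher. The 5 P450 genes that fell with BRAFV600E and were negative under MEKi were Cyp3a11, Cyp3a16, Cyp3a59, Cyp2d10 and Cyp2d11. With Y-linked signal as covariate Cyp3a11, Cyp3a16 and Cyp3a59 were positive instead, at 0.52, 0.19 and 0.33. They were positive too without Vehicle replicate 2, at 0.25, 0.0675 and 0.13, and with array weights, at 0.24, 0.15 and 0.13.

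**Figure D4:**
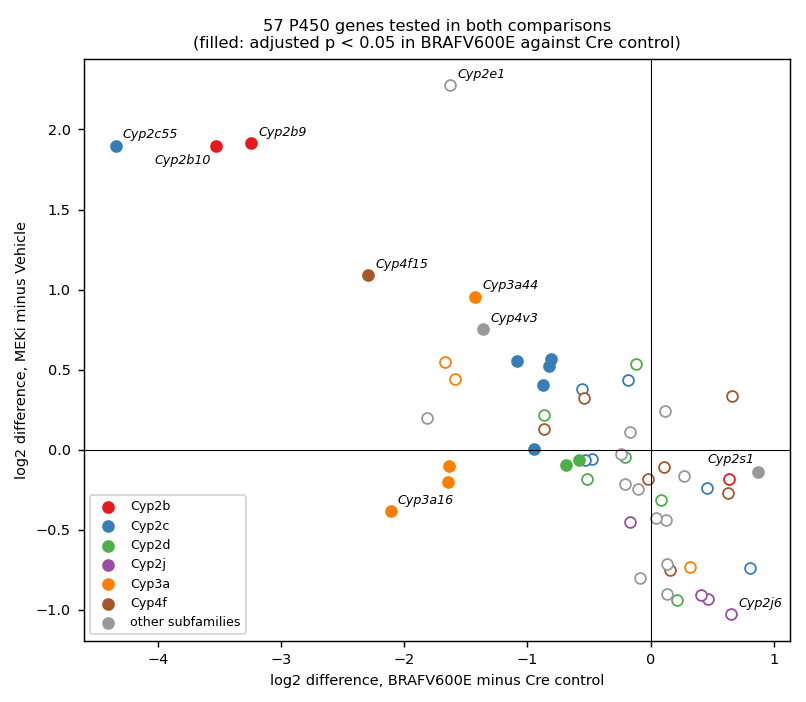
The 57 P450 genes tested in both comparisons, with the log2 difference of BRAFV600E minus Cre control across and of MEKi minus Vehicle upwards, coloured by subfamily; filled points passed the threshold with BRAFV600E. Cyp2b9, Cyp2b10 and Cyp2c55 lie at −3.24 to −4.34 across and 1.90 to 1.91 upwards. Under MEKi Cyp2c55 was not called (limma adjusted p 0.172), and Cyp2b9 and Cyp2b10 were called but not with Y-linked signal as covariate. Cyp3a16, Cyp3a11 and Cyp3a59 lie at −2.11 to −1.64 across and slightly below 0 upwards, a sign that turned with Y-linked signal as covariate, with array weights and without Vehicle replicate 2. Without scaling between arrays Cyp2d10, Cyp2d11 and Cyp2c40 turned from negative to 0.12, 0.22 and 0.00 across, and Cyp2c38 from 0.00 to −0.02 upwards.

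Por, the electron donor of all these enzymes, rose with BRAFV600E and fell under MEKi. Its levels were 4.77 at lowest and 6.25 at highest in Cre control, and 5.69 and 6.61 in BRAFV600E, a rise of 0.77 (SE 0.231, adjusted p 0.0472) with overlap. Under MEKi Por was at 4.87, 5.48, 4.95 and 5.599, and in Vehicle at 6.22, 6.15, 6.62 and 6.26. The groups did not overlap and the difference was −1.09 (SE 0.203, adjusted p 0.0404). The other 8 genes of the redox and haem list, among them Cyb5a, Cyb5r3 and Alas1, were not called in either comparison.

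Of 18 tested nuclear receptors and factors that act on P450 genes, 5 rose with BRAFV600E, 0 fell, and 0 were called under MEKi. The 5 were Nr0b2, an orphan receptor that represses other receptors (1.92, adjusted p 0.00310), Pparg (1.40, adjusted p 0.0133), the liver and gut factors Cebpa (0.69) and Hnf4a (0.60), and the oxidative stress factor Nfe2l2 (0.52). The receptors usually tied to Cyp2b, Cyp2c and Cyp3a were not called, Nr1i3 at −0.76 (SE 0.302, adjusted p 0.114) and Nr1i2 at −0.16 (SE 0.155, adjusted p 0.538). Ahr, tied to Cyp1, was at 0.28 (SE 0.191, adjusted p 0.357). Of 4 AhR targets outside the P450 family, Ahrr, the AhR repressor, fell by 0.92. Among 15 tested P450 genes of families 5 and above, Cyp51, the lanosterol demethylase of cholesterol synthesis, rose by 1.13 (adjusted p 0.00934) and Cyp26b1, which degrades retinoic acid, fell by 0.91 (adjusted p 0.0205). The median of those 15 was −0.44, and 0 were called under MEKi. Of 9 tested epoxide hydrolases and arachidonate enzymes Ptgs1 alone fell with BRAFV600E, with 0 called under MEKi.

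Markers of several cell types moved with BRAFV600E too, and their part in the P450 result was not tested. Of the 10 enterocyte markers Alpi rose and 0 fell, with a median of −0.42. Of 5 Paneth markers 4 fell, with a mean level of 3.86 to 6.17 in BRAFV600E and 6.60 to 7.13 in Cre control, and of 6 goblet markers 3 fell and 1 rose, at 6.01 to 6.91 against 6.74 to 7.25. Of 5 tested hepatocyte markers Alb (−1.16, adjusted p 0.0131) and Serpina1a (−1.33, adjusted p 0.00121) fell and Ttr (1.93, adjusted p 0.0249) rose. Of 4 stem cell markers Ascl2 and Lgr5 fell, of 6 enteroendocrine markers 2 fell and 1 rose, of 4 tuft cell markers 1 fell, and of 4 ileal markers 1 fell. It was Cubn, which fell by 5.31. Of 4 T cell markers 2 fell, of 4 macrophage markers 1 fell, of 5 smooth muscle and 5 proximal gut markers 1 each rose, and 0 B cell or colon markers were called. BRAFV600E replicates 1 and 2, the slide 1 arrays, had the lowest enterocyte, Paneth and ileal means of that group. Replicate 2 also had its highest proximal gut mean, 3.98 against 2.76 to 3.41, and an ileal mean of −4.02 against −3.43 to −1.67. Under MEKi the stem cell marker Ascl2 rose, 0 markers of the other lists were called, and the Paneth mean was 6.77 to 7.57 against 5.21 to 6.91 in Vehicle, where 5.21 was replicate 2 and the other 3 arrays lay from 6.58 to 6.91.

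RefSeq promoters of 300 bases, 250 before the start and 50 after it, were found for 50 of the 60 tested P450 genes, in 56 entries. They were searched on both strands for GCGTG of the AhR element, for AGGTCA of the nuclear receptor sites, for TATAAA of the TATA box and for GTTAAT of the HNF1 site, none of which contains another. TATAAA occurred in 10 of 16 promoters of genes that fell with BRAFV600E (62.5%), in 10 of 40 of the other tested P450 genes (25.0%) and in 13.6% of all 32851 promoters. AGGTCA occurred in 25.0% of both P450 sets and 16.3% of all promoters. GCGTG was present in 18.8%, 25.0% and 32.4%, and GTTAAT in 18.8%, 10.0% and 7.10%, in the same order. TATAAA stood 29, 31 and 40 bases before the start in Cyp2c55, Cyp2c38 and Cyp2c67, and 122, 126 and 234 bases before it in Cyp3a44, Cyp3a16 and Cyp3a11. In Cyp2d10 it stood at 31 bases on the other strand, and in Cyp2d11 at 16 bases and, on the other strand, at 43. The rest of the 10 held no whole copy in the 250 bases before the start. Several of these promoters are near-copies, as given above for Cyp2c40 with Cyp2c69 and Cyp3a16 with Cyp3a44, so they are not separate observations. The upstream sequences of Cyp2d10 and Cyp2d11, which both hold TATAAA, matched at 193 of 238 bases (81.1%).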

How the data were processed

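Total RNA of 20 pieces of mouse intestine was hybridised to 1-colour Agilent mouse arrays. The authors deposited Feature Extraction (10.5.1.1) scanner output, in which the processed signal is a background-corrected intensity per spot; probe coordinates are mm9. A deposited series table held the same processed signal. Spots of a probe were averaged, log2 intensity was taken minus the 75th percentile of the array, control spots were left out, and a gene was represented by its brightest probe on average. The arrays of each comparison were fitted separately in limma 3.58.1 (R 4.3.3; lmFit and eBayes, two-sided, no covariates, Benjamini-Hochberg over all tested genes; called at adjusted p under 0.05), as the study's methods name limma. The number of arrays limits the precision. Upstream sequences are RefSeq's (GRCm38.p6). Members and lists were chosen with earlier results of these data known. Named were all called members, Cyp1a and Cyp1b members, and the 3 largest uncalled differences of each comparison. Alternatives were background correction (normexp), quantile or no scaling, the detection filter, the choice of probe, array weights, Y-linked signal, slide and each array left out. The fit was tested on simulated data. Columns of per-sample values not used numbered 0. A result for a gene of the PPARA target list is not reported here.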

Additional observations from a re-analysis of the deposited data

Results flagged for a closer look

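In 5 of 88 groups of a named P450 gene, the highest or lowest array stood apart from the rest by Dixon's criterion; chance alone gives about 1 in 20. Cyp1a1 on Cre control replicate 2 was at 0.02 (0.0169), with the next array at −2.81. Cyp2c40 on Cre control replicate 4 was at 1.81, with the next at 0.80. Cyp2c67 on Cre control replicate 6 was at 0.47, with the next at 1.34. Cyp2e1 on Vehicle replicate 1 was at −2.17, with the next at −3.69. Cyp3a11 on BRAFV600E replicate 1 was at 0.10 (0.0968), with the next at 1.53.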

How the results depend on the processing

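With BRAFV600E the number of P450 genes called was 17, and 12 to 18 as each array was left out. It was 22 with normexp, 21 with quantile scaling, 15 without scaling, 16 with slide as a block and 12 on slide 1 alone, but 2 (Cyp2c55 and Cyp3a16) on the arrays with Y-linked signal, an alternative chosen after seeing the data. Over all genes the share called with BRAFV600E was 12.5% in the main fit, 24.4% with normexp, 12.2% with quantile scaling and 49.1% without scaling. It was 8.06% with slide as a block, 3.86% on slide 1 alone and 2.16% on the arrays with Y-linked signal. The fewer P450 calls in the last 2 of these settings therefore came with fewer calls over all genes. Under MEKi the number of P450 genes called was 2, and 0 to 3 as each array was left out. It was 1 without the detection filter, 1 with every probe, 0 with Y-linked signal as covariate and 10 with array weights. On the arrays with Y-linked signal it was 1 (Cyp4f15, not well above background on the Vehicle arrays used). Over all genes the share called was 0.935%, 1.41%, 0.276%, 7.39% and 0.406% in these settings, in that order. That share was 0.395% to 1.96% as each array was left out. No paired analysis was possible because the labels give no replicate numbers that groups share.

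Directions turned as follows, and the cause was not tested. With BRAFV600E and no scaling, Cyp2d11 was at 0.22, Cyp2d10 at 0.12, Cyp2c40 at 5.97e-05 and Cyp1b1 at 0.73. Cyp1b1 was at 0.0334 with array weights, 0.30 with slide as a block, 0.30 on slide 1 alone and 0.0143 on the arrays with Y-linked signal, where Cyp1a1 was at −0.86. Under MEKi, with Y-linked signal as covariate, with array weights and on the arrays with that signal, Cyp3a16 was at 0.19, 0.15 and 0.21, Cyp3a59 at 0.33, 0.13 and 0.34, Cyp3a11 at 0.52, 0.24 and 0.54, and Cyp1a1 at 1.40, 0.91 and 1.44. Cyp2w1 was at −0.81 and −0.83 in the first and last of these, Cyp2s1 at 0.00237 in the last, and Cyp2c38 at −0.0219 without scaling. As each array was left out, Cyp1a1 ranged from −0.48 to 0.67 and Cyp1b1 from −0.45 to 0.24 with BRAFV600E. Under MEKi the ranges were −0.17 to 0.11 for Cyp2d11, −0.21 to 0.10 for Cyp2d10, −0.18 to 0.74 for Cyp2w1, −1.57 to 1.02 for Cyp1a1, −0.15 to 0.24 for Cyp2c38, −0.58 to 0.25 for Cyp3a11, −0.72 to 0.0675 for Cyp3a16, −0.24 to 0.0249 for Cyp2s1 and −0.25 to 0.13 for Cyp3a59. Genes near background, such as Cyp4f15, Cyp3a44 and Cyp1a1, are limited by signal over background.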

Other observations

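Cre control replicate 6, chosen for mention after its values were seen, had low levels of several P450 genes that were not called. Cyp2c29 was at −1.85 there and from 2.36 to 3.17 on the other 5 Cre control arrays. Cyp4f17 was at −2.65 there and from 0.51 to 1.24 on the others, and Cyp4a14 was at −5.32 there and from −3.78 to −2.16. Cyp2b13 was at −6.73 on that array and −6.41 on Cre control replicate 2, and from −3.88 to −3.53 on the other 4. Cyp2c29 had a median level of 2.60 in Cre control and 1.72 in BRAFV600E, with a fitted difference of −0.18 (SE 0.697) that includes Cre control replicate 6. Without that array Cyp2c29 was called.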
